A study of Mus musculus with 3 samples.

Results

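The genes described here are 8 of the lower small intestine: Fgf15, Slc10a2, Fabp6, Slc51a, Slc51b, Nr1h4 and Nr0b2, which handle bile acids or signal their return, and Cubn, the receptor for vitamin B12 there. They were found as every probe set that the platform annotation gives 1 of these symbols and no other, which made 9 probe sets of 45101 on the array and 8 genes of 18193 with a probe set of their own symbol. Cubn had 2 probe sets and the others 1 each. They were chosen by their role in the ileum and with their intensities in these same 3 arrays in view, so the values below are a description and carry no test.

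RNA came from follicle-associated epithelium, the epithelial sheet that covers the lymphoid follicles of Peyer's patches, taken from the small intestine of untreated C57BL/6 mice and hybridised to Affymetrix arrays. The data are 2 arrays from mice depleted of RBP-J and 1 array from wild type mice. Depletion was by VillinCre acting on Rbpjflox/flox, and the Villin promoter drives Cre in intestinal epithelium. The age and sex of the mice, the segment of small intestine and any pooling of mice are not stated in the labels used here. Nothing says that the 2 depleted samples came from separate mice, so their spread may be technical. The design asks what loss of RBP-J, the DNA-binding partner of Notch receptors, changes in the RNA of this epithelium.

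Bile acids made in the liver and released into the duodenum are mostly taken back in the terminal ileum and returned to the liver. In ileal enterocytes they bind the nuclear receptor FXR, which raises the genes for their intracellular binding protein, for their export and for the hormone FGF15. FGF15 travels to the liver and lowers bile acid synthesis there.

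Intensities are given relative to the median of the array, which is 1 in every array, and each difference compares arrays within 1 probe set. Marker sums add probe sets of unequal brightness and are compared only between arrays. Differences are on the scale log2(value + 0.248), depleted minus wild type, where 0.248 is the 25th percentile of all values. A gene was tested if its mean over the arrays was at least 0.598, the 40th percentile of probe set means. All 9 probe sets passed that minimum, so no member was left out. Over the 11885 genes tested the median difference was -0.003 for the first depleted array and 0.22 for the second. Over the 5871 brighter genes, those whose mean was 5 or more, it was 0.009 and 0.29. The median distance between the depleted arrays over all genes tested was 0.38 on the log2 scale.

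Before the members, 3 facts bear on every value below. Rbpj itself gave 3 probe sets, which read 2.72, 2.30 and 4.14 in the first depleted array. They read 5.74, 4.21 and 4.92 in its replicate and 7.15, 3.79 and 5.37 in wild type. The second depleted array thus went little below wild type or, for 1 probe set, above it, and no source used here places these probe sets relative to the deleted part. Xist, expressed from the inactive X chromosome of females, read 42.8 and 43.4 in the depleted arrays and 0.297 in wild type, and Eif2s3y, on the Y chromosome, read 0.122 and 0.056 against 20.6. Genotype and sex therefore cannot be told apart in any difference given here. Both differences of a gene also share the single wild type array, so that a reading there that is too low or too high moves both the same way.

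Fgf15, the ileal hormone, showed the largest difference of the 8 genes. Its probe set read 25.9 and 17.6 in the first and second depleted arrays, against 7.65 in wild type. Both depleted arrays lay above wild type, by 3.39-fold and 2.30-fold, and the log2 differences were 1.73 and 1.18 (mean 1.45 ± 0.39, SD, n = 2). The mean intensity was 21.8 ± 5.90 in the depleted arrays (SD, n = 2), against the single wild type value. Fgf15 was the only member at least 2-fold higher in both depleted arrays on the log2 scale, a criterion that 0.841% of all genes tested met. That criterion depends on the scaling: the difference in the second array was 0.99 with the same 75th percentile in each array, 0.92 with arrays scaled to the brighter genes and 0.91 after quantile normalization. With a pseudocount of 5 in place of 0.248 it was 0.84. In the first array these settings gave 1.78, 1.74, 1.75 and 1.29. Among the 11885 genes, 20 had a larger difference than Fgf15 in both arrays, and its smaller difference ranked 62.

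**Figure D1:**
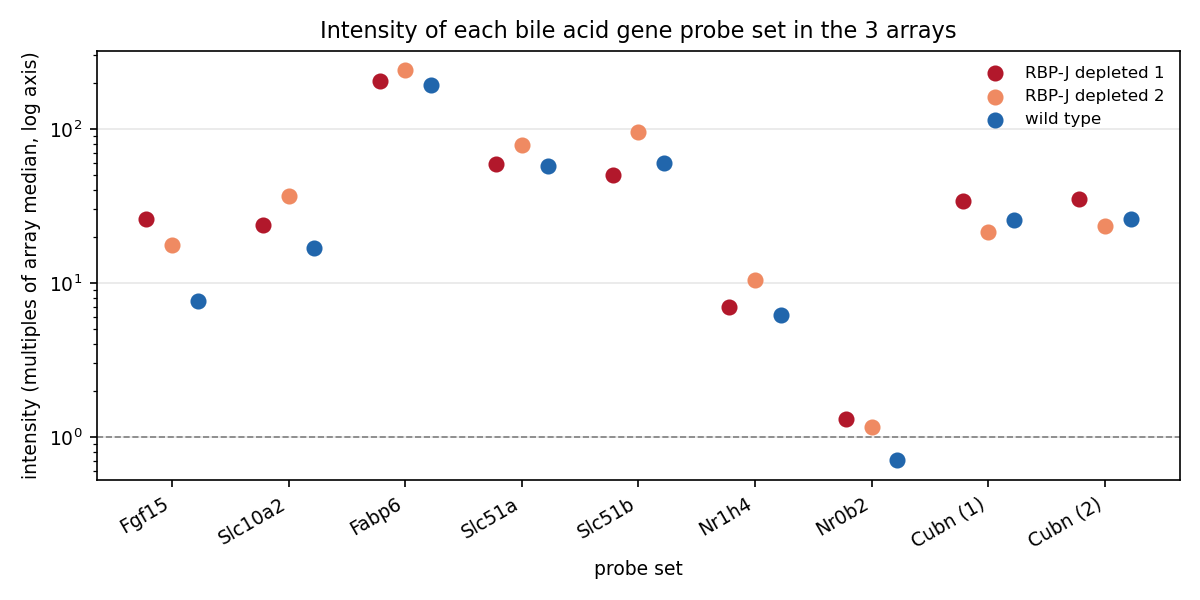
Intensity of each member's probe set (x axis; Cubn has 2) in multiples of the array median on a log axis, for the first and second RBP-J depleted arrays and the wild type array; the dashed line is the array median and each point is 1 array. Fgf15, Slc10a2, Nr1h4, Nr0b2, Fabp6 and Slc51a lie higher in both depleted arrays than in wild type, Fabp6 and Slc51a narrowly so in the first. Slc51b and Cubn lie on both sides of wild type.

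Slc10a2, the apical sodium-dependent transporter that brings bile acids into the enterocyte, came next among the bright members. It read 23.9 in the first depleted array but 36.8 in the second, against 16.8 in wild type. Both depleted arrays were above wild type, with log2 differences of 0.50 and 1.12 (mean 0.81 ± 0.44, SD, n = 2). The order of the depleted arrays was opposite to that of Fgf15: Fgf15 was higher in the first and Slc10a2 in the second. The difference of Fgf15 exceeded that of Slc10a2 by 1.23 in the first array and by 0.05 in the second, so the ranking of these neighbours rests on the first array.

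Fabp6, the cytosolic bile acid binding protein of ileal enterocytes, was close to wild type. It read 205 and 240 in the depleted arrays, against 192 in wild type. Its rank among all probe sets was the same in each of the 3 arrays, number 6 from the brightest. Its log2 differences were 0.10 and 0.33, which lay 0.09 and 0.04 above the median of the brighter genes. With equal ranks, quantile normalization gives it a difference of 0.

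Slc51a and Slc51b encode the 2 chains of the basolateral transporter that passes bile acids on to the portal blood, and both chains are needed for it to work. Slc51a read 59.4 and 79.1 in the depleted arrays, against 57.6 in wild type. Slc51b read 50.3 and 95.3, against 60.5 in wild type. The first depleted array was thus level with wild type for Slc51a and below it for Slc51b, and the second was above it for both. The log2 differences were 0.04 and 0.46 for Slc51a and -0.26 and 0.65 for Slc51b. Relative to the median of the brighter genes they were 0.04 and 0.17 for Slc51a and -0.27 and 0.37 for Slc51b. The depleted arrays stood 0.92 apart for Slc51b, the widest distance among the members, and 11.7% of all genes tested had a wider one. No direction can be given for Slc51b, whose values lie on both sides of wild type.

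Nr1h4 encodes FXR, the bile acid receptor itself. It read 7.03 and 10.5 in the depleted arrays, against 6.16 in wild type, with log2 differences of 0.18 and 0.75. Both arrays were above wild type, and the excess over the median of the brighter genes was 0.17 in the first and 0.46 in the second. Nr0b2 encodes SHP, a repressor whose gene is a textbook target of FXR. It read 1.31 and 1.16 in the depleted arrays, against 0.705 in wild type. These values lie around the array median, where the pseudocount weighs on the difference. The log2 differences of Nr0b2 were 0.70 and 0.56 (mean 0.63 ± 0.10, SD, n = 2), and the mean was 0.39 with a pseudocount of 1 and 0.13 with 5. Detection calls were not used here, and whether Nr0b2 was above background was not tested.

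Cubn encodes cubilin, the ileal receptor for vitamin B12 bound to intrinsic factor, which takes up no bile acids and shares the distal location of the other genes. Its 2 probe sets read 33.9 and 34.8 in depleted array 1, 21.3 and 23.3 in depleted array 2, and 25.7 and 26.2 in wild type. Both probe sets went the same way within each array: above wild type in the first depleted array, by 0.40 and 0.41 on the log2 scale, and below it in the second, with log2 differences of -0.27 and -0.17. Among the members, Cubn alone was lower than wild type in the second array and Slc51b alone in the first, a description of these 3 arrays.

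Of the 8 members, 6 were higher than wild type in both depleted arrays, against 39.0% of all genes tested, and 0 were lower in both, against 19.5%. At least 2-fold lower in both were 0 members and 0.488% of all genes. The members' median difference was 0.30 in the first array and 0.61 in the second, beside medians of -0.003 and 0.22 over all genes. All members but Nr0b2 were among the brighter genes, of which 43.5% were higher and 13.0% lower in both. The medians of the brighter genes were 0.009 and 0.29. Because the genes were chosen with this contrast in view, nothing is read from these counts. With quantile normalization 4 members were higher in both, since Fabp6 came to 0 and Slc51a was below wild type in the first array.

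**Figure D2:**
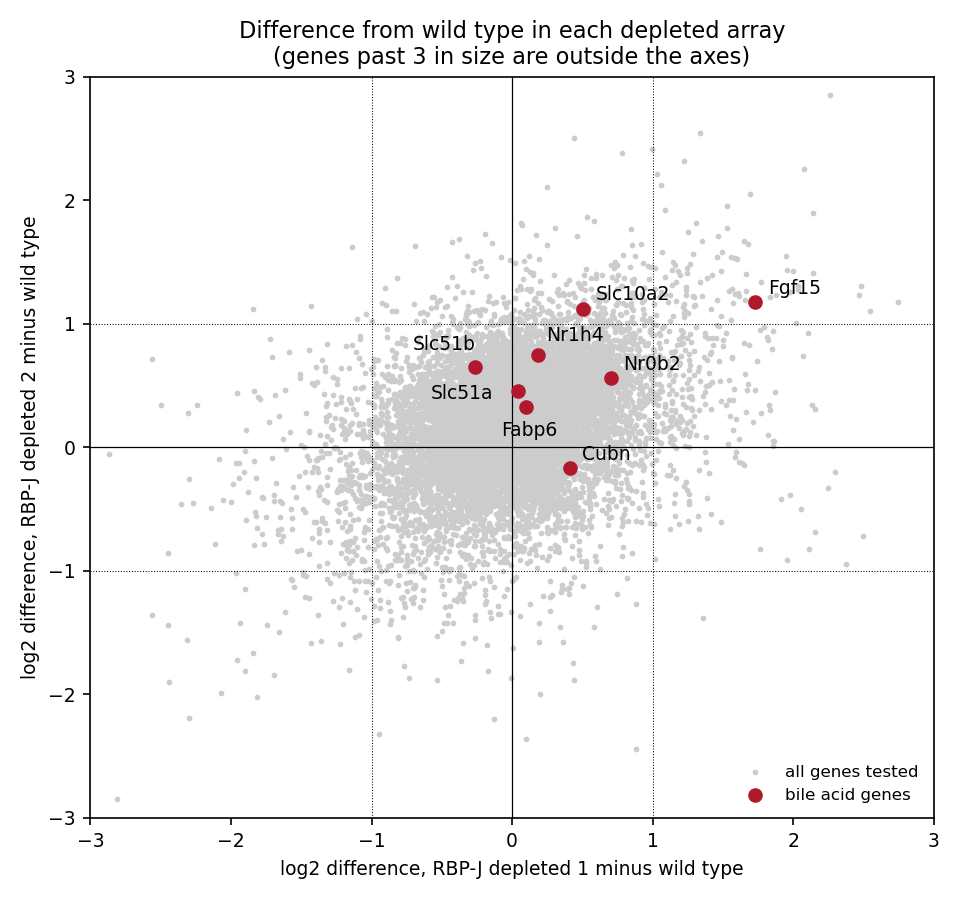
Log2 difference from wild type in the first (x axis) and second (y axis) depleted array for all genes tested (grey) and the 8 members (red, labelled; Cubn by its brighter probe set), with dotted lines at 2-fold. Fgf15 lies at 1.73 and 1.18, beyond both lines, and the other members lie inside at least 1 of them.

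**Figure D3:**
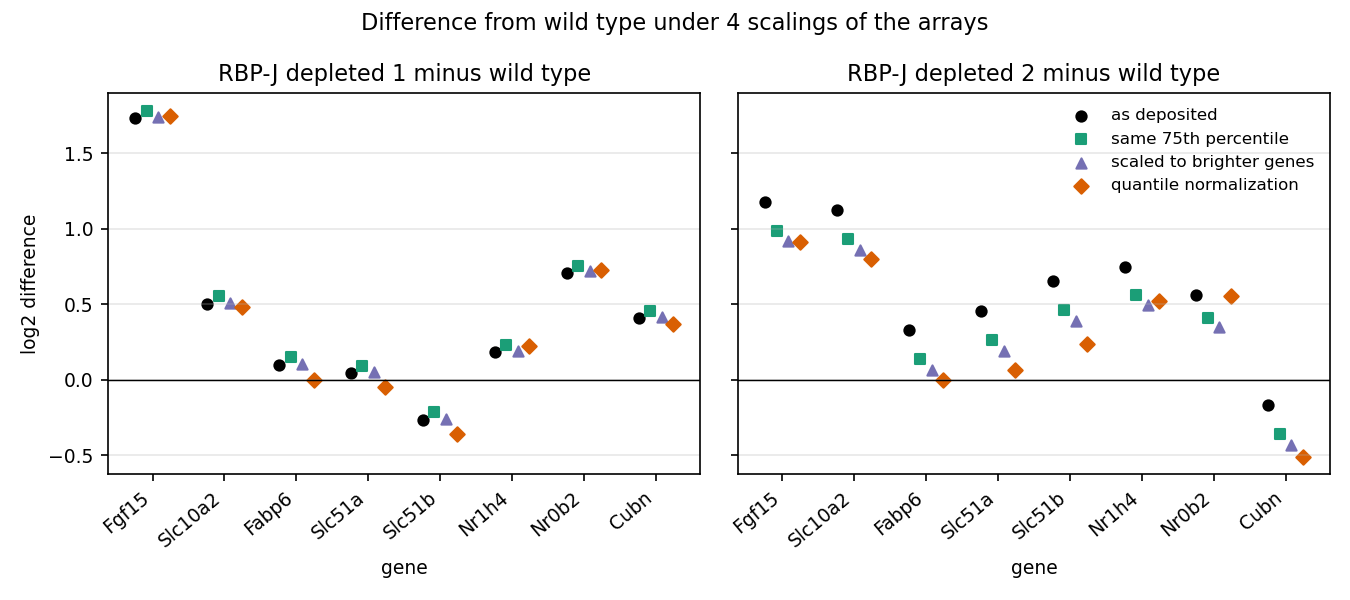
Log2 difference from wild type of each member (x axis) in the first (left) and second (right) depleted array under 4 scalings of the arrays, 1 marker for each. Fgf15 stays between 1.73 and 1.78 in the first array, and in the second it is at 1.18 as deposited and at 0.99, 0.92 and 0.91 with the other scalings.

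The promoters of 7 of the 8 members, all but Fgf15, were matched by symbol in RefSeq, build GRCm38.p6, each with 250 bases before and 50 after a transcription start. In 6 of them this is the outer start of the gene, and for Nr1h4 it is a start inside the gene, so its matches below are not at the outer start. They were searched on both strands for the inverted repeat that FXR binds with its partner RXR, AGGTCA and TGACCT with 1 base between, and for the HNF1 motif, GTTAAT and ATTAAC with 1 base between, each with up to 2 mismatches outside that base. CAAGGNCA for LRH-1 (Nr5a2), AGATAA for GATA factors and TGGGAA for the core bound by RBP-J were searched without mismatches. The FXR repeat was found in 2 of the 7 promoters, those of Fabp6 and Cubn, and in 1.14% of all 32851 promoters of this length. HNF1 was found in Slc10a2 and Nr1h4 (1.36% of all promoters), LRH-1 in Fabp6, Slc51a and Nr0b2 (6.71%), GATA in Nr1h4 (11.2%), and the RBP-J core in Slc10a2, Nr1h4 and Nr0b2 (25.6%). None of the 12 matches overlapped another. A match is a run of letters, not a shown binding site.

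Shown are 4 promoters that carry the matches for the uptake, binding and export of bile acids and for SHP, in lower case with matches to the FXR, HNF1 and LRH-1 motifs in capitals, 5′ to 3′ on the gene's strand.
Slc10a2, chr8:5105238-5105537, minus strand: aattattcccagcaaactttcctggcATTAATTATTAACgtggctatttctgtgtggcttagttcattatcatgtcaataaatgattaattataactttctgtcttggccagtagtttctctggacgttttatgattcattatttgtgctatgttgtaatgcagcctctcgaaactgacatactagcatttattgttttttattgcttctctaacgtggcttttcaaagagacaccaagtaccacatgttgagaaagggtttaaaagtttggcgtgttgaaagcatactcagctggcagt
Fabp6, chr11:43601513-43601812, minus strand: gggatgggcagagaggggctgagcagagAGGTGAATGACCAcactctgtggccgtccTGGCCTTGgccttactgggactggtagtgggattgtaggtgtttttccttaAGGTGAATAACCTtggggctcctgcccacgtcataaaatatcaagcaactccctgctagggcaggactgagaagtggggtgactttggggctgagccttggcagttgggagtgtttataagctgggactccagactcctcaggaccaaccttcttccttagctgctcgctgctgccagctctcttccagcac
Slc51a, chr16:32487830-32488129, minus strand: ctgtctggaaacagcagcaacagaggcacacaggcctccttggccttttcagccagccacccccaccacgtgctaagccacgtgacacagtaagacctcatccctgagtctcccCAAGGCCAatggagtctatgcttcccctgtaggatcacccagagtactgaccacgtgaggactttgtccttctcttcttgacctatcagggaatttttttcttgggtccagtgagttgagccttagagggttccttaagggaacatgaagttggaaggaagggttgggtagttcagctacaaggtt
Nr0b2, chr4:133553126-133553425, plus strand: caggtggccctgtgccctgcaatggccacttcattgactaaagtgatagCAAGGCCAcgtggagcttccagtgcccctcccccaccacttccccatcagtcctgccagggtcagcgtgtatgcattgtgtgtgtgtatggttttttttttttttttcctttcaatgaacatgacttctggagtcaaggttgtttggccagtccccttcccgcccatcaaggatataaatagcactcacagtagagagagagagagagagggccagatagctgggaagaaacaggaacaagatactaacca
In Slc10a2 the capitals are an HNF1 match with 1 mismatch, from position -224 to -212 before the start. In Fabp6 they are FXR repeats from -222 to -210 and from -142 to -130, each with 2 mismatches, and an LRH-1 match on the other strand from -193 to -186. In Slc51a and in Nr0b2 they are an LRH-1 match, from -136 to -129 and from -201 to -194.

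The rest of the bile acid pathway showed no common direction. Of 31 other genes listed, 27 had a probe set and 21 were tested, and limma called 0 of them at an adjusted p under 0.05, with 0 at an unadjusted p under 0.05. Over all genes limma called 0.0421% as higher and 0.0421% as lower. Sex-linked genes were among those called over all genes. In both depleted arrays 9 of the 21 were higher than wild type and 6 were lower, beside 39.0% and 19.5% of all genes. The median of the 21 was -0.013 in the first array and 0.20 in the second. The list was drawn up with earlier results of these arrays known, like those that follow.

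Among receptors and partners, Rxra, the partner of FXR, read 4.93 and 7.06 in the depleted arrays, against 5.52 in wild type. Nr5a2, or LRH-1, read 4.20 and 9.89, against 5.79. Hnf4a, a nuclear receptor of enterocyte identity, read 76.4 and 89.1, against 80.8. All 3 had a depleted array on either side of wild type. Fgfr4, the receptor for FGF15 in the liver, read 4.67 in both depleted arrays and 4.76 in wild type, and its co-receptor Klb was below the intensity minimum. Nr1i2, the xenobiotic receptor PXR, read 8.87 and 9.18, against 7.46.

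Among transporters, Abcc2 read 49.9 and 40.5 in the depleted arrays, against 38.6 in wild type. Abcc3, a basolateral exporter of conjugated bile acids, read 15.0 and 18.3, against 22.5, and was lower in both (log2 differences -0.58 and -0.30, limma adjusted p = 0.9997). Abcg8 read 13.0 and 12.4, against 8.79, but Abcg5, with which it forms 1 sterol exporter, read 14.0 and 15.3, against 16.1. These partners of 1 pump lay on opposite sides of wild type. Of the 21 tested genes, Baat, which conjugates bile acids in the liver, had the largest difference shared by both arrays. It read 0.985 and 0.874, against 0.278, values under the array median throughout, where the pseudocount weighs on the difference. Its log2 differences of 1.23 and 1.09 met the 2-fold criterion that Fgf15 alone met among the members. Nos2, reported as raised by FXR in mouse ileum, read 8.82 and 9.31, against 15.0 in wild type, with log2 differences of -0.75 and -0.67 (limma adjusted p = 0.9997). The other listed genes reported as raised by FXR there are Ang, Il18 and Car12. Ang read 11.7 and 8.10, against 7.74, Il18 read 6.46 and 10.2, against 8.62, and Car12 read 11.1 and 8.33, against 9.80. These genes thus showed no shared direction.

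Vitamin B12 genes other than Cubn had 8 tested of 10, with 0 called by limma, 0 at an unadjusted p under 0.05, 3 higher in both arrays and 0 lower in both. Their median was -0.021 in the first array and 0.36 in the second. Of all genes tested, 39.0% were higher and 19.5% lower in both arrays. Amn encodes amnionless, the membrane anchor that cubilin needs. It read 4.29 and 6.29 in the depleted arrays, against 3.68 in wild type. In the second array, where Cubn was lower than wild type, Amn was higher by 0.74 on the log2 scale, and the difference of Cubn was below that of Amn by 0.90.

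Genes of the distal and of the proximal small intestine were set beside the members, since the segment is not given. The 19 other distal enterocyte genes, all tested, had a median of 0.21 in the first array and 0.37 in the second, with 13 higher and 4 lower in both. The 24 proximal enterocyte genes, all tested, had medians of 0.14 and 0.39, with 14 higher and 1 lower in both. The 13 further absorptive enterocyte markers had 0.17 and 0.45, with 10 higher and 0 lower in both. Of all genes tested, 39.0% were higher and 19.5% lower in both. Limma called 0 genes in each of these lists, with 1 proximal gene and no gene of the other lists at an unadjusted p under 0.05. The medians of the distal and proximal lists were thus within 0.1 of each other in both arrays, and that of the 8 chosen members, given as a description, was 0.30 and 0.61.

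By name, the distal genes with the largest difference shared by both arrays were Ceacam20, Tmigd1, Mep1a, Vnn1, Slc13a1 and Slc7a9, all higher. Ceacam20 read 30.1 and 30.7 in the depleted arrays, against 19.8 in wild type. Mep1a, a brush border metalloprotease, read 41.2 and 52.3, against 30.2. The transcription factor gene Maf read 80.6 and 96.0, against 69.9. These differences were 0.20 to 0.84 on the log2 scale, under both values of Fgf15.

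Among proximal genes, Slc40a1, the iron exporter ferroportin, read 4.54 and 3.50 in the depleted arrays, against 2.35 in wild type, and Onecut2 read 4.82 and 5.04, against 3.46. Gata4, a transcription factor of the duodenum and jejunum that holds down ileal bile acid genes there, read 23.0 and 18.8, against 22.7. Lct, for lactase, read 49.2 and 30.7, against 39.1. The wild type array lay between the depleted arrays for both genes. Tmprss15, for duodenal enteropeptidase, named after its values were seen, read 4.89 and 0.096, against 0.146, and was the proximal gene at an unadjusted p under 0.05. It was high in the first depleted array alone, the array with the highest Fgf15 and Cubn, and its part in those values was not tested.

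**Figure D4:**
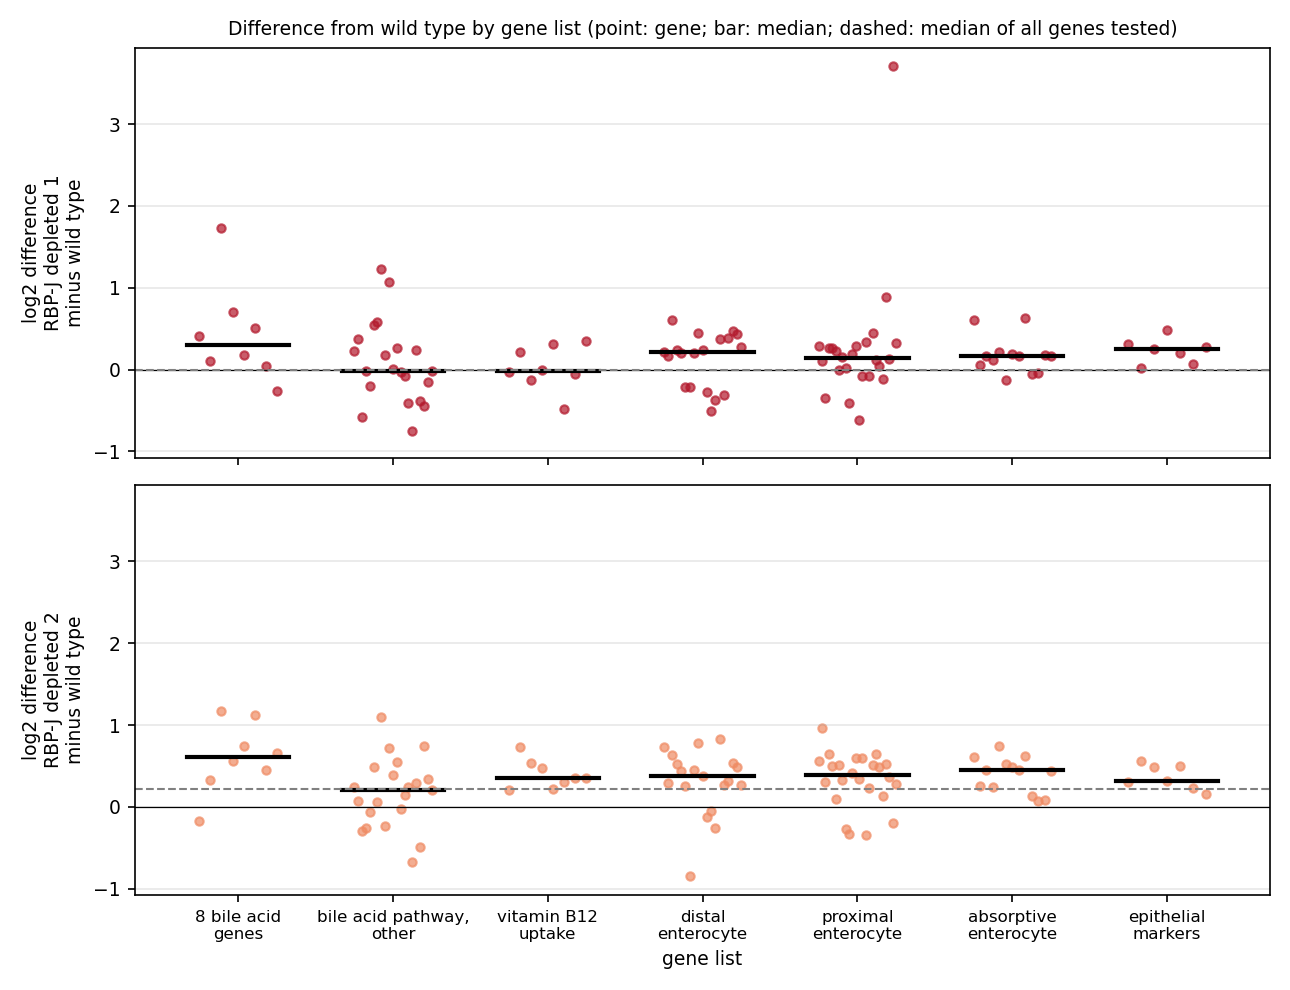
Log2 difference from wild type of each tested gene (points) by gene list (x axis) in the first (top) and second (bottom) depleted array, with the median of each list (black bar) and of all genes tested (dashed). Medians of the distal and proximal lists lie close together, at 0.21 and 0.14 in the first array and 0.37 and 0.39 in the second, and Tmprss15 stands alone at 3.71.

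Epithelial markers were bright in every array, and their 7 genes summed to 681 and 769 in the depleted arrays, against 588 in wild type. All 7 were higher in both depleted arrays, as were 43.5% of the brighter genes. The 7 had median differences of 0.24 and 0.32, beside 0.009 and 0.29 over the brighter genes. The sums here were not rescaled for that shift of the second array. The 10 follicle-associated epithelium and M cell markers with a probe set summed to 476 and 632, against 433, and Gp2, a receptor of mature M cells, read 9.90 and 32.6, against 19.8. The 9 B cell markers summed to 27.8 and 67.9, against 54.6, and without Ighm, the heavy chain of IgM, to 18.1 and 40.9, against 41.5. Of these 9, 4 were lower in both depleted arrays (Ms4a1, Cd22, Cr2 and Pax5), beside 19.5% of all genes tested. Higher in both was 1, beside 39.0%. The median differences of the 9 were -0.90 and 0.010. The 6 T cell markers summed to 12.6 and 21.1, against 15.4. Smooth muscle markers, of which 4 of 6 were below the intensity minimum, summed to 2.74 and 2.99, against 3.66, and stroma markers, 5 of 7 below it, to 2.37 and 5.91, against 2.07. No marker of these lists was at 0. The first depleted array had the lowest B cell sum and the highest Fgf15, Nr0b2 and Cubn. Slc10a2, Fabp6, Slc51a, Slc51b and Nr1h4 were highest in the second. The B cell sum of the second was the highest with Ighm but not without it. In RNA from all cells of a sample, more cells of a type and more RNA per cell cannot be told apart. The part of cell makeup in the members' differences was not tested.

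The 5 tested genes whose pair of differences lay nearest to that of Fgf15 over the 3 arrays were Tmem198b, Trip6, Arid3a, Ube2d-ps and Sema3e, at distances of 0.072 to 0.14 on the log2 plane. Sema3e read 4.26 and 3.25 in the depleted arrays, against 1.23 in wild type. In wild type Tmem198b, Trip6, Arid3a and Ube2d-ps read 0.594, 0.856, 0.261 and 0.445, under the array median. There the pseudocount weighs on the difference. The nearest member, Nr0b2, lay at a distance of 1.20 and the next, Slc10a2, at 1.23. With 3 arrays many genes share any pattern, and the likeness is a description only.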

How the data were processed

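Follicle-associated epithelium was measured on 3 arrays, 2 RBP-J depleted and 1 wild type. The authors' deposited values are linear intensities, for which the submitters' processing notes name MAS5. Each array has a median of 1 over its 45101 probe sets. Scanner output and detection calls were not analysed here. No depth applies to arrays, and their number limits the precision.

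Names of probe sets come from the platform annotation. A gene with several probe sets was tested by the one with the highest mean. Intensities were used as log2(value + 0.248) without further scaling. Genes with a mean of at least 0.598 were compared with limma 3.58.1 in R 4.3.3 (lmFit, eBayes with trend), with Benjamini-Hochberg adjustment over 11885 genes. The spread rests on the 2 depleted arrays and a prior of 600 degrees of freedom, which takes wild type to vary as they do. The script was tested on simulated data. Alternatives changed the scaling, pseudocount, filter, probe set rule and variance prior, or left out a depleted array. Named genes are all members, any of the bile acid and vitamin B12 lists, up to 6 of each enterocyte list by the smaller shared difference, with Gata4, Maf, Amn, Lct, Sis, Alpi, Apoa4 and Fabp1, defining markers, sex-linked genes, and the 5 nearest to Fgf15. The members and lists were chosen with earlier results of these data known.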

Additional observations from a re-analysis of the deposited data

How the results depend on the processing

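No paired analysis was possible, since there was 1 wild type array and the labels give no pairing of samples. Of the members, Fgf15, Slc10a2, Nr1h4, Nr0b2 and Slc51a kept a positive mean difference under all 10 alternatives. The ranges were 1.06 to 1.73, 0.50 to 1.12, 0.18 to 0.75, 0.13 to 0.70 and 0.008 to 0.46 in that order. Only the changes of scaling could have turned these signs. With 1 probe set each and both differences positive, the filter, probe set rule, pseudocount and leaving out an array could not. With quantile normalization Fabp6 reached 0 and Slc51a 0.008, against 0.21 and 0.25. Slc51b turned to -0.062 with quantile normalization and ran from -0.26 to 0.65 with 1 depleted array left out. Cubn turned to -0.071 with quantile normalization, to -0.0064 with arrays scaled to the brighter genes (mean of 5 or more), and ran from -0.17 to 0.41 with 1 depleted array left out. The median over the members was 0.36, and 0.30 to 0.61 with 1 depleted array left out, 0.19 with quantile normalization, 0.22 with a pseudocount of 5 and 0.23 with arrays scaled to the brighter genes.

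Medians with quantile normalization were 0.087 for distal, 0.063 for proximal and 0.057 for absorptive enterocyte genes, 0.12 for vitamin B12 genes and 0.0021 for the other bile acid genes, against 0.32, 0.26, 0.30, 0.22 and 0.096. With arrays scaled to the brighter genes, they were 0.19, 0.15, 0.18, 0.099 and -0.030 in the same order. With 1 depleted array left out the median of the other bile acid genes ran from -0.013 to 0.20 and that of the vitamin B12 genes from -0.021 to 0.36.

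Limma called 10 genes over the whole table, 4 with the same 75th percentile or quantile normalization, 6 with a stricter filter, at the 60th percentile, and 1 without any. The 10 included the sex-linked genes Xist, called as higher, and Eif2s3y, Kdm5d and Uty, on the Y chromosome, called as lower. Genes at least 2-fold higher in both depleted arrays numbered 100 and lower ones 58. The counts were 19 and 19 with a pseudocount of 1, 3 and 4 with 5, 162 and 124 with no filter, 41 and 25 with that stricter filter, and 56 and 27 when all probe sets of a gene were averaged. With arrays scaled to the brighter genes, lower ones numbered 89. With 1 depleted array left out they numbered 379 to 424 higher and 195 to 384 lower, since 1 array then decides. The cause of the other moves was not tested. With 1 wild type array no alternative can show how far that array itself sets these values.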
